A study of Homo sapiens with 36 samples.

Results

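The transcripts described here encode the translation initiation factors: 30 genes chosen by name, from EIF1 to the poly(A)-binding proteins PABPC1 and PABPC4. They were looked up by exact gene name in 9 lists of RNA windows enriched after crosslinking and immunoprecipitation (eCLIP). Of the 30 genes, 29 held at least 1 listed window, and EIF4A1 held 0 because the lists give its windows under combined names. The 29 transcripts carried 3690 of the 788098 listed windows, counted per list, and 2266 of the 601384 distinct windows. They are 29 of 11298 gene names in the lists, of which 10122 belong to protein-coding genes.

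The study assayed 9 proteins in HEK293T cells, a transformed human embryonic kidney line, with no treatment. Each protein had 2 IP libraries and 2 input libraries, which gave 36 libraries. All groups share untreated cells and differ in the protein recovered, with an antibody to that protein or to a V5 tag. Which proteins carried the tag is not given in the sources used here, nor whether replicates were separate cultures. The proteins were CPSF5 and CPSF6 (subunits of cleavage factor Im, which acts at poly(A) sites), EIF4B (a cofactor of the initiation helicase), GRB2 (a signalling adaptor) and LGALS3 (galectin-3, a lectin). The others were MBNL2 (a muscleblind splicing regulator), RBM10 (a splicing regulator), RBM22 (a component of the activated spliceosome) and RNPS1 (a peripheral exon junction complex protein). The lists hold no measure of expression, so the cell line label could not be checked against marker genes.

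Initiation factors bring the small ribosomal subunit to the capped 5′ end of an mRNA and help it scan to the start codon. The cap-binding protein eIF4E, the scaffold eIF4G and the helicase eIF4A open the 5′ end, with EIF4B and EIF4H as helicase cofactors. The eIF2 complex delivers the initiator tRNA, and the large eIF3 complex links the mRNA to the small subunit. Several of these mRNAs begin with a 5′ terminal oligopyrimidine (TOP) tract, a C followed by a run of C and T bases, through which growth signalling controls the translation of such mRNAs.

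The data therefore include an initiation factor, EIF4B, recovered with the mRNAs of the other initiation factors, and its strongest window lay at the 5′ end in most of them. The sequences of 5 such windows are shown because they are short and differ in their first bases. Each is printed from the RefSeq start, an annotated first base not measured in these cells, to the base before the start codon. They were read on the coding strand from RefSeq, build GRCh38.p14, and capitals mark the unbroken run of C and T that starts with a C at the RefSeq start.
EIF3F: CTTCTTTCTCgacaag
EIF2S3: CTCTTTTggcaac
EIF4B: CTTTTgcgttctctttccctctcccaac
EIF4H: CTggttcctctcggagcggagacggcaa
EIF4E: gtgcgatcagatcgatctaag
The EIF3F window is chr11:7987337-7987352 on the plus strand, EIF2S3 is chrX:24054956-24054968 (plus), and EIF4H is chr7:74174356-74174383 (plus). The EIF4E window is chr4:98929113-98929133 on the minus strand. The EIF4B sequence, chr12:53006456-53006483 (plus), is the part from the RefSeq start onward of a longer window that begins at 53006431. The EIF4B values below are those of the whole window. Each sequence is followed directly by ATG.

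In the EIF4B list the EIF3F window had 153 IP reads and 0 input reads, EIF2S3 had 96 and 10, and EIF4B itself had 32 and 4. The windows without a long pyrimidine run were also listed, with 448 IP and 6 input reads for EIF4H and 45 and 2 for EIF4E. The deposited log2 enrichment of IP over input in the lower and higher replicate was 7.80 and 8.32 for EIF3F, 3.63 and 5.36 for EIF2S3, and 3.25 and 3.83 for EIF4B. It was 4.41 and 6.85 for EIF4H and 4.85 and 4.99 for EIF4E. EIF3F stood above the others, and the replicate ranges of EIF2S3, EIF4H and EIF4E, which differ in their first bases, overlapped. Each of these windows was also in the RNPS1 list, with lower-replicate values there from 2.15 (EIF4H) to 4.44 (EIF4E). A start with a C and at least 4 further C or T bases, 5 or more in all, was found for 7 of the 22 members with a start in the RefSeq promoter table (31.8%). They were EIF2S3, EIF3D, EIF3F, EIF3K, EIF3M, EIF4A2 and EIF4B. The same pattern was found for 585 of 7622 genes of the EIF4B list (7.68%) and at 1429 of 35116 start positions of the whole table (4.07%). The RefSeq start lay inside an EIF4B window for 20 of the 22 members, and for 12 an EIF4B window began at exactly that base. The EIF3F window has the same ends in the CPSF6, MBNL2 and RNPS1 lists. A window edge at the start therefore need not mark where EIF4B bound, and neither count was made over all genes.

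Enrichment is quoted from here on as this log2 value, lower replicate first. It is the authors' own odds ratio per window, and it describes or ranks windows within a list. The tables give IP and input reads summed over both replicates, so no value per library exists, no test between lists was possible, and all differences are descriptions. Reads in listed windows ranged from 187076 (LGALS3) to 13313477 (GRB2) for IP and from 65036 (LGALS3) to 1548461 (CPSF6) for input. Library depth itself is unknown. A gene absent from a list may have lacked enrichment or coverage there, and the number of windows also grows with transcript length and abundance.

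The 29 transcripts with exact names were all in the EIF4B, CPSF6 and RNPS1 lists, where 93.4%, 86.6% and 90.0% of protein-coding genes were listed. The CPSF5 list (background 65.4%), the MBNL2 list (66.5%) and the RBM10 list (47.3%) each held 26 of the 30 members. The RBM22 list held 21 (background 23.7%), the GRB2 list 16 (background 49.1%) and the LGALS3 list 8 (background 3.28%). The member share was furthest above the background in the RBM22, RBM10 and LGALS3 lists and near it in the GRB2, EIF4B, CPSF6 and RNPS1 lists. Where each replicate had to reach a q-value of 0.05, the members listed were 22 for RBM10 (background 28.7%), 12 for RBM22 (background 11.0%) and 1 for LGALS3 (background 0.780%). The RBM22 and LGALS3 counts therefore moved by over 1.5 times, and with an enrichment of at least 3 they were 11 and 0. The share of all protein-coding genes at that enrichment was not counted, so these 2 counts have no background. By windows, RNPS1 came first with 981, then GRB2 with 885, CPSF6 with 788, EIF4B with 295, MBNL2 with 268, RBM10 with 248, CPSF5 with 161, RBM22 with 55 and LGALS3 with 9.

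**Figure D1:**
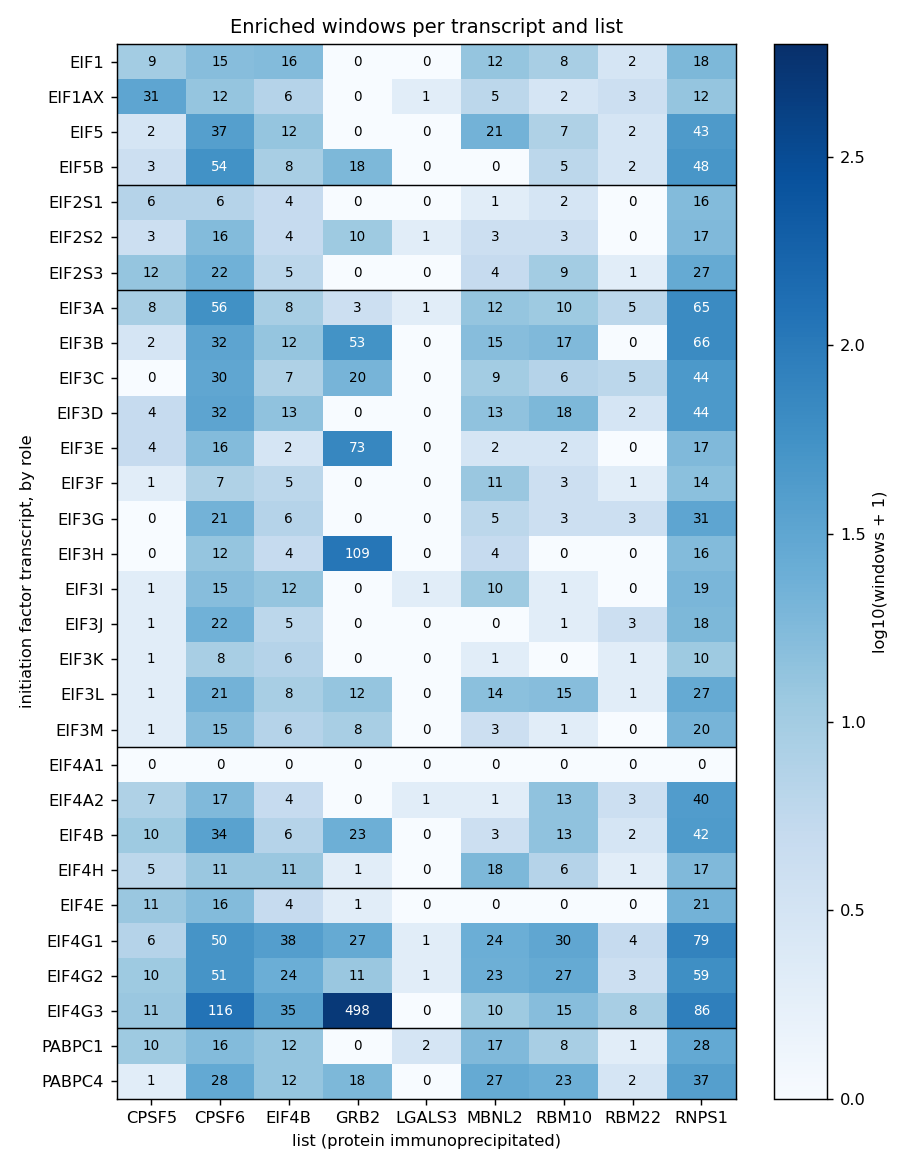
Number of enriched windows (figure in each cell, colour on a log10 scale of windows + 1) for each initiation factor transcript, grouped by role, in each of the 9 lists. The EIF4G3 cell of the GRB2 list stands out with 498 windows, EIF1AX leads the CPSF5 column with 31, and the EIF4A1 line is 0 throughout under exact naming.

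EIF3A (the large scaffold subunit of eIF3), EIF4G1 and EIF4G2 (scaffold proteins) were in all 9 lists. A further 9 members were in 8 lists, 11 in 7 and 4 in 6. EIF3H, an eIF3 subunit, and EIF4E, the cap-binding protein, were in 5. EIF4E was missing from the LGALS3, MBNL2, RBM10 and RBM22 lists, and EIF3H from the CPSF5, LGALS3, RBM10 and RBM22 lists.

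The plot of window classes shows where the member windows of each list lay. The largest class was the 3′ UTR for CPSF5 (75.8% of member windows, 78.9% of all windows of the list) and the deep intron for GRB2 (78.5% against 93.1%). Coding sequence was the largest class for CPSF6 (54.2% against 46.3%), RNPS1 (51.8% against 63.3%), MBNL2 (59.3% against 50.1%) and EIF4B (49.5% against 30.3%). It was also the largest for RBM22 (34.5% against 27.9%) and, with 4 of 9 windows, for LGALS3 (44.4% against 62.6%). Windows adjacent to 3′ splice sites were largest for RBM10 (30.6% against 32.0%), but by IP reads noncoding exons held more of the RBM10 member signal (39.8% against 27.1% beside 3′ splice sites). By IP reads the order turned too for EIF4B, with the 5′ UTR ahead of coding sequence, and for RBM22, with noncoding exons ahead (32.7% against 26.1%). Deep introns held 6.35% of the members' CPSF6 windows against 23.4% of all, and 1.61% of their RBM10 windows against 14.4%. Noncoding exons of these genes, which are exon windows annotated as neither coding sequence nor UTR, held 29.0% of the members' RBM10 windows against 13.2% of all. In the GRB2 list that class held 10.2% against 0.790%, and EIF3E alone carried 58 of the 90 windows. Without EIF3E the share was 3.94% (32 of 812).

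**Figure D2:**
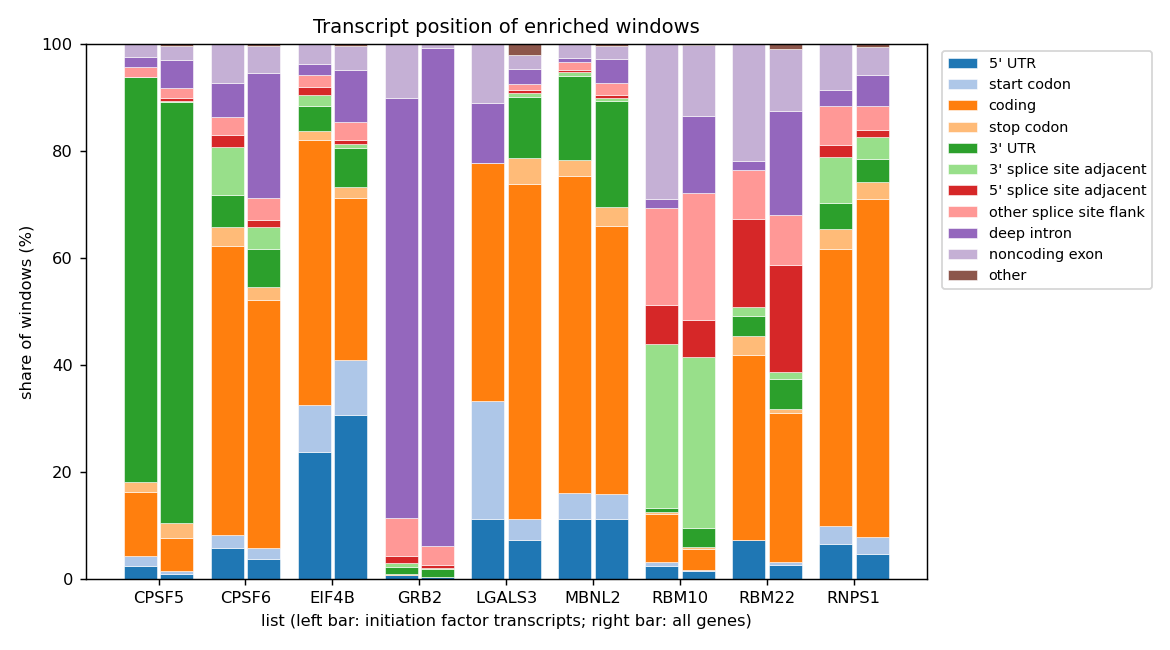
Share of windows (percent) by transcript position for each list; the left bar of a pair is the initiation factor transcripts and the right bar is all genes. The 3′ UTR fills most of both CPSF5 bars (75.8% and 78.9%) and the deep intron most of both GRB2 bars (78.5% and 93.1%), while the EIF4B pair differs most in coding sequence (49.5% and 30.3%).

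EIF4B windows sat at the 5′ end of every listed member. All 29 had a 5′ UTR or start codon window, against 95.8% of the protein-coding genes in that list, so this count is close to the background. All 29 had a window in the 5′ UTR itself and 23 had one at the start codon. The 5′ UTR and start codon windows were 96 of the 295, and 5′ UTR windows alone held 64.5% of the members' IP reads against 16.6% in the 146 coding windows. The median enrichment was 3.80 in 5′ UTR windows, 3.13 at start codons and 2.15 in coding windows (lower replicate, members). For all genes the medians were 3.69, 3.29 and 2.39. Windows in the 5′ UTR or at the start codon were not limited to EIF4B. The RNPS1 list had them in 29 members (97 windows) and the CPSF6 list in 25 (64 windows). The median lower-replicate enrichment of these member windows was 2.50 (RNPS1) and 2.01 (CPSF6), against 3.66 in the EIF4B list.

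In 25 of the 27 members with both kinds of window, the strongest 5′ end window was above the strongest coding window (92.6%). The same was true of 5152 of 5912 genes in the list (87.1%). Per transcript, the strongest 5′ end window had a median of 4.48 over the 29 members, from 1.73 to 7.80, against 4.36 for the 9059 genes with one. The strongest coding window had a median of 2.75, against 3.11 for all genes with both kinds.

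Among the eIF3 subunits, EIF3F led the list of all members, and its 16 nt window stood at the 99.98 percentile of the whole EIF4B list. EIF3M followed with its start codon window (167 IP reads, 5 input reads, enrichment 5.70 to 5.80), and EIF3E with a 5′ UTR window of 53 IP reads and 1 input read (5.64 to 5.94). EIF3I had 344 and 4 reads in its 5′ UTR (5.28 to 5.91), EIF3D 47 and 6 (5.11 to 5.17) and EIF3A 631 and 9 (5.09 to 5.51). These 5 lay close together, between 5.09 and 5.70 in the lower replicate, and the strongest windows of all 13 subunits had a median of 4.79. The lowest, EIF3G, had 26 and 3 reads at its start codon and replicates far apart (2.82 and 5.89).

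Of the factors that act in scanning and start site choice, EIF1AX had 1350 IP and 17 input reads in its 5′ UTR (5.44 to 5.53). EIF1, which guards start codon fidelity, had 366 and 21 reads at its start codon (4.78 to 5.32). Its 5′ UTR window at the RefSeq start held the largest read sum named here, 9598 IP and 284 input (4.23 in the lower replicate). EIF5, the GTPase activator of eIF2, had 1735 and 37 reads in its 5′ UTR (4.70 to 4.86). EIF5B, which joins the large subunit, was low at the 5′ end (218 and 16 reads, 2.29 to 4.05). The eIF2 subunits were in the lower part of the range: EIF2S1 had 82 and 5 reads (4.18 to 4.75), EIF2S2 453 and 18 (3.73 to 4.02) and EIF2S3 the window printed above.

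Among cap-binding and scaffold transcripts, EIF4G1 had 410 and 5 reads in a 5′ UTR window (5.13 to 5.76) and the most windows of any member in the EIF4B list, 38, of which 10 were at the 5′ end. EIF4G2, a scaffold that lacks the cap-binding protein's docking site, had its strongest window in a noncoding exon (58 and 5 reads, 5.89 to 6.08) and 861 and 20 reads in its 5′ UTR (4.61 to 4.71). EIF4G3 ran against the rest: its strongest 5′ end window (503 and 44 reads, 2.69 to 2.78) was below its strongest coding window (4.38 in the lower replicate). EIF5B was the other member with that order, by 2.29 against 2.46. PABPC4 had 538 and 16 reads in its 5′ UTR (5.39 to 6.78), and PABPC1, the main cytoplasmic poly(A)-binding protein, had 418 and 76 (2.94 to 3.89). The helicase EIF4A2 was lowest of all, with 61 and 10 reads and replicates far apart (1.73 and 4.86).

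The 5 members that are widely reported as TOP mRNAs (PABPC1, EIF3E, EIF3F, EIF3H and EIF4B) overlapped the other 24 members. Their strongest 5′ end windows had a median of 4.20, from 2.94 to 7.80, and the other 24 had a median of 4.54, from 1.73 to 5.70. The other 24 include EIF2S3, EIF3D, EIF3K, EIF3M and EIF4A2, whose RefSeq starts carry the pyrimidine pattern counted above. This split therefore cannot tell whether mRNAs with a TOP tract differ from the rest.

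**Figure D3:**
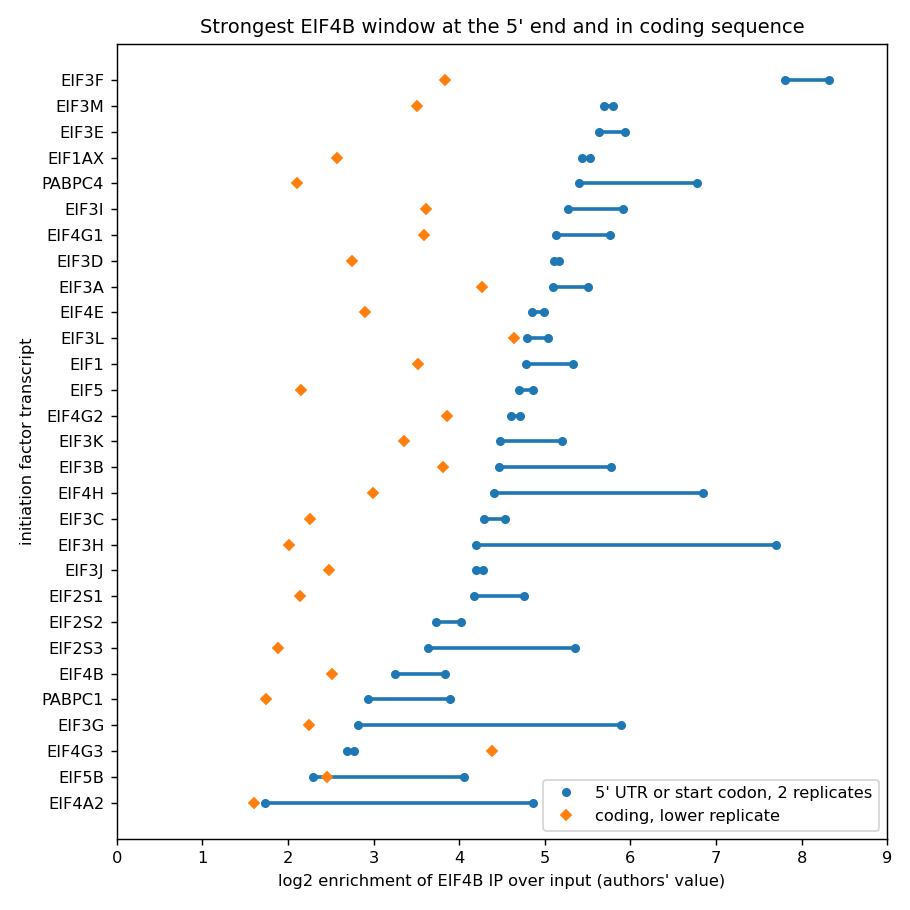
Log2 enrichment of EIF4B IP over input (x axis, authors' value) for the 29 initiation factor transcripts; blue points joined by a line are the lower and higher replicate of the strongest 5′ UTR or start codon window, and the orange diamond is the lower replicate of the strongest coding window. EIF3F lies alone at 7.80 to 8.32, and in EIF4G3 and EIF5B the diamond is to the right of the lower blue point.

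The EIF4B transcript itself had windows in 8 of the 9 lists, all but LGALS3. In the EIF4B list it had 6 windows. The strongest was a noncoding exon window upstream of the RefSeq start (chr12:53006282-53006355, 17 IP reads, 0 input reads, 3.85 to 3.90), with a highest q-value of 0.098. The 5′ UTR window printed in part above came next. That 5′ UTR window was also in 4 other lists, with enrichment in the lower replicate of 2.60 (CPSF6), 1.38 (GRB2), 2.04 (RBM22) and 3.15 (RNPS1). The EIF4B protein's 5′ UTR window on its own message was thus below the member median of 4.48.

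The other proteins had windows at different and partly shared places on the EIF4B gene. CPSF5 had 10 windows, all in the 3′ UTR, and the strongest was the last before the RefSeq gene end (chr12:53042116-53042215, 51 and 3 reads, 4.16 to 4.63). GRB2 had 23 windows, of which 22 lay within 2500 nt of the start, and the strongest of these was intronic, near a splice site (chr12:53006897-53006996, 302 and 4 reads, 4.83 to 7.09). RNPS1 had 42 windows, 25 of them coding, and CPSF6 had 34, 23 of them coding and all 23 also in the RNPS1 list. RBM10 had 13 windows, none coding, with 7 adjacent to a 3′ splice site. MBNL2 had 3 and RBM22 had 2, the stronger of which was adjacent to a 5′ splice site and centred 90.5 nt after the RefSeq start (79 and 2 reads, 3.26 to 4.69).

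**Figure D4:**
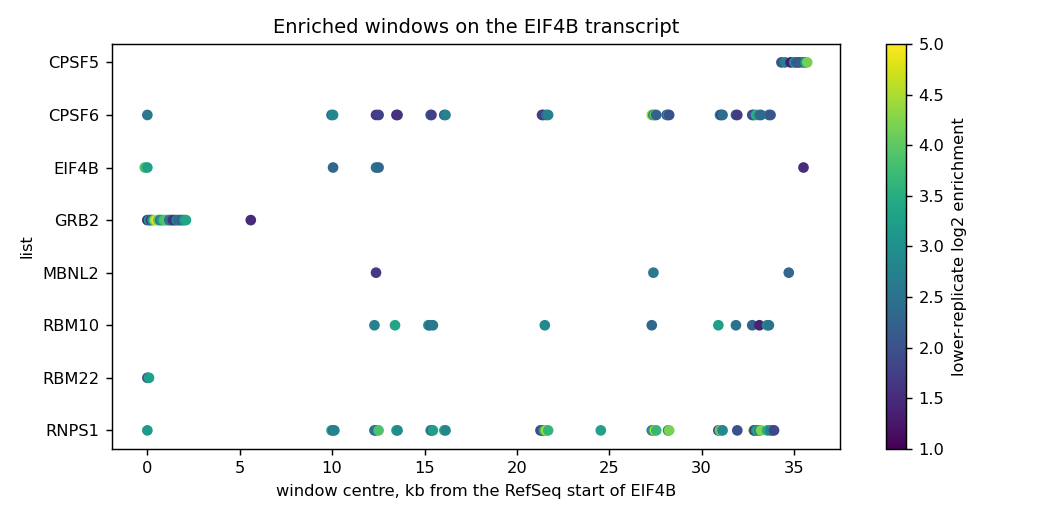
Centre of each enriched window on the EIF4B gene (x axis, kb from its RefSeq start) in the 8 lists that hold it, coloured by lower-replicate log2 enrichment. GRB2 windows gather just after the start, CPSF5 windows at the far end, and CPSF6, RNPS1 and RBM10 windows along the body.

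CPSF5 windows were in the 3′ UTR of 21 of the 26 listed members, against 91.8% of the protein-coding genes in that list. The 5 without one were the eIF3 subunits EIF3F, EIF3I, EIF3K, EIF3L and EIF3M, and EIF3C, EIF3G and EIF3H were not in the list at all. The eIF3 transcripts had 24 CPSF5 windows over 10 subunits. The 4 scanning and joining factors had 45, of which 31 were in EIF1AX alone. The strongest member window was in EIF4A2, chr3:186789718-186789807, with 1023 IP and 25 input reads (6.13 to 6.15), centred 134.5 nt from the RefSeq gene end. EIF4A2 held 7 CPSF5 windows within 583 nt of that end, and their median enrichment was 5.52 in the lower replicate.

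EIF4E came next (chr4:98879957-98880053, 36 and 0 reads, 5.60 to 5.65, 729 nt from the end), followed by EIF1 (442 and 13 reads, 5.56 to 6.13) and EIF4G2 (839 and 40 reads, 5.02 to 5.19). EIF1AX had the most CPSF5 windows, 31, of which 29 were in the 3′ UTR and spread from 49 to 3631 nt before the gene end. Its strongest window was centred 1143.5 nt before the end (78 and 3 reads, 4.64 to 5.03). EIF2S3 had 12 windows, and EIF4E and EIF4G3 had 11 each. In EIF2S1 the strongest window was 1836 nt before the end (39 and 1 reads, 4.26 to 5.97), and the window nearest the end was centred 149 nt from it. In EIF3A, EIF4B and EIF4G1 the strongest window was the last one before the end, centred 48.5, 49.5 and 44.5 nt from it. In EIF5 and EIF5B the strongest was also the nearest listed, but at 1937 and 908 nt. Members with a single 3′ UTR window had it at distances from 32.5 nt (EIF3D) to 1605 nt (EIF3J). The strongest window thus lay at very different distances from the RefSeq gene end. That end need not be the poly(A) site used in these cells, and distances to used sites were not measured.

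**Figure D5:**
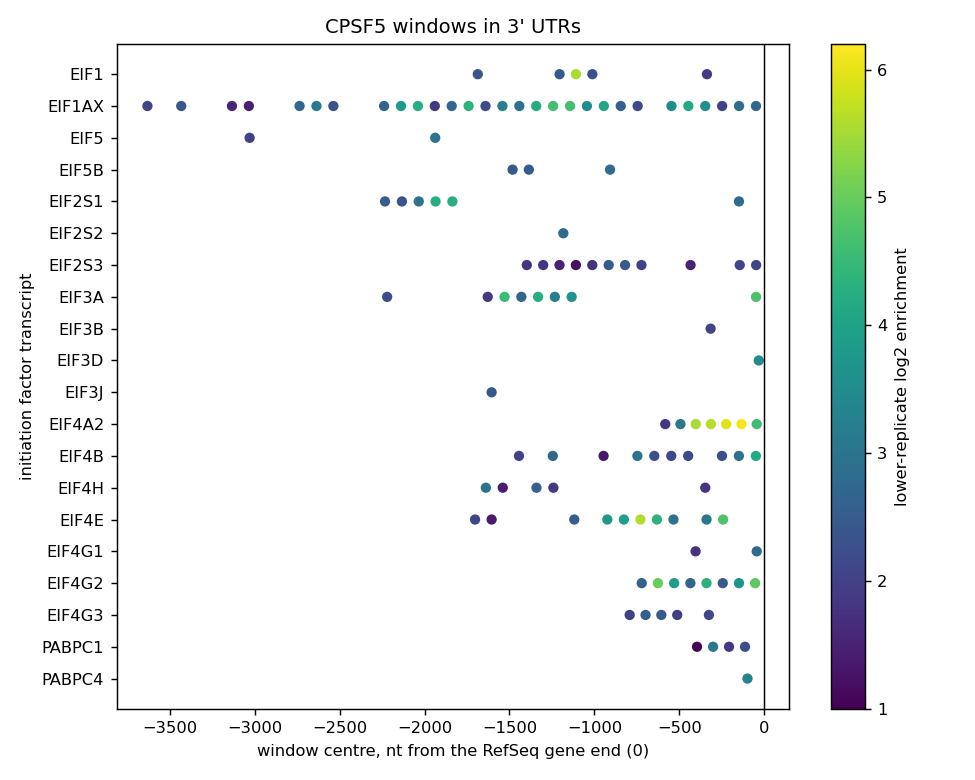
Centre of each CPSF5 3′ UTR window (x axis, nt from the RefSeq gene end at 0) for the initiation factor transcripts, coloured by lower-replicate log2 enrichment; EIF3E is left out because its RefSeq end lies far downstream. EIF1AX windows reach back to 3631 nt, and the brightest points are the EIF4A2 windows near the end, up to 6.13.

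RNPS1 and CPSF6 shared the coding sequence of these mRNAs. All 29 listed members had a coding window in the RNPS1 list (background 93.2%) and in the CPSF6 list (background 87.6%). The members had 530 distinct coding windows that were in at least 1 list. Of these, 508 (95.8%) were in the RNPS1 list and 427 (80.6%) in the CPSF6 list, and 415 were in both. Coding sequence in no list is left out of that total, and the RNPS1 windows make up most of it. Over all genes the shares were 80.6% and 60.1% of 119941 distinct coding windows. In 19 of the 29 transcripts, among them EIF1 with only 1, every listed coding window was in the RNPS1 list. That count was not made over all genes, and it does not show that the whole coding sequence was covered. EIF3A had 40 of 40 there and 39 in the CPSF6 list, whereas EIF3F had 7 of 10 and 4.

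The strongest RNPS1 windows were coding windows of EIF5B (chr2:99364271-99364345, 86 IP reads, 1 input read, 6.81 to 7.43), EIF2S2 (225 and 2 reads, 6.69 to 6.76), EIF4G1 (148 and 1 reads, 6.53 to 8.06) and EIF4G3 (73 and 0 reads, 6.46 to 6.58). These 4 stood between percentiles 99.96 and 99.99 of the list. The members with most RNPS1 windows were EIF4G3 with 86, EIF4G1 with 79 and EIF3B, an eIF3 core subunit, with 66. The strongest CPSF6 windows were in a deep intron of EIF4G3 (chr1:20845621-20845720, 26 and 0 reads, 5.42 to 5.68), beside a 3′ splice site of EIF3A (44 and 1 reads, 5.38 to 5.95) and in the coding sequence of EIF5B (399 and 15 reads, 5.35 to 6.16). EIF4G3 had 116 CPSF6 windows, EIF3A 56 and EIF5B 54. EIF5B and EIF4G3 were among the leaders in both lists, and the lists shared 37 coding windows of EIF5B, the leading RNPS1 window among them (4.75 in the CPSF6 list, lower replicate).

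RBM10 had a window adjacent to a 3′ splice site in 21 of 26 listed members (background 77.5%). The strongest RBM10 window was in a PABPC4 intron near a splice site (chr1:39564586-39564642, 130 and 0 reads, 6.30 to 6.47). EIF3L, an eIF3 subunit, followed with a 3′ splice site window (chr22:37875741-37875840, 62 and 0 reads, 5.61 to 5.95), and 8 of its 15 windows were of that kind. EIF4G3 was next by gene (265 and 4 reads, 5.01 to 7.46), with replicates well apart. EIF4G1 had the most RBM10 windows, 30, then EIF4G2 with 27 and PABPC4 with 23.

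RBM22 had 55 windows in 21 members, and 7 of these members had one adjacent to a 5′ splice site (background 52.0%). That class held 16.4% of the member windows against 20.1% of all RBM22 windows, and coding sequence held 19 of the 55. The strongest was adjacent to a 5′ splice site in EIF3J, a loosely bound eIF3 subunit (chr15:44537428-44537527, 44 and 0 reads, 4.997 to 5.31). EIF4G1 followed (21 and 0 reads, 4.39 to 4.71), then EIF4H (22 and 0 reads, 4.10 to 4.28), both in introns near splice sites. The EIF4H window had a highest q-value of 0.155. EIF4G3 had 8 windows, and EIF3A and EIF3C had 5 each. EIF3C has a near-identical copy, EIF3CL, which carried 78 listed windows of its own and 12 under a combined name, so reads may have been split between the copies.

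GRB2 windows were unevenly spread. EIF4G3 held 498 of the 885 (56.3%), EIF3H 109, EIF3E 73 and EIF3B 53, and 14 members, among them EIF1, EIF1AX, EIF5 and PABPC1, had none. Deep intron windows were found in 13 of the 16 listed members (background 93.3%), all but EIF4E, EIF4G2 and PABPC4. Without EIF4G3 the deep intron share of the member windows was 56.6% in place of 78.5%. The listed members had a median RefSeq gene length of 37874.5 nt (n = 16) and the unlisted ones, leaving out EIF4A1, a median of 17314 nt (n = 13). The shortest listed gene, 11881 nt, was below the longest unlisted one, 26189 nt, so the lengths overlapped.

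The strongest GRB2 window was in EIF3E, in a noncoding exon (chr8:108248315-108248413, 255 IP reads, 0 input reads, 7.71 to 8.02). It was followed by EIF3B (chr7:2378289-2378388, an intron near a splice site, 111 and 0 reads, 6.81 to 6.94) and EIF4G3 (a deep intron, 441 and 1 reads, 6.77 to 8.60). Of the 73 EIF3E windows, 58 were in noncoding exons, among them the next strongest, with 167 and 0 reads (6.71 to 7.66). EIF3H had 130 and 0 reads in its strongest window, a deep intron (6.53 to 7.08).

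MBNL2 windows lay mainly on mature mRNA. Coding windows were found in 22 of 26 listed members (background 72.5%), and 5′ UTR or start codon windows in 16 (background 58.2%). The strongest was in the coding sequence of EIF4G1 (chr3:184327645-184327704, 32 and 2 reads, 6.22 to 6.83), then in that of PABPC1 (289 and 23 reads, 5.05 to 5.82). EIF3D had 10 and 2 reads in a 10 nt 5′ UTR window (4.9996 to 6.40). PABPC4 had the most MBNL2 windows, 27, then EIF4G1 with 24 and EIF4G2 with 23. The EIF3F 5′ UTR window printed above was also in the MBNL2 list, with 17 IP reads and 1 input read (4.45 in the lower replicate), and in the CPSF6 and RNPS1 lists with 3.26 and 3.33.

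LGALS3 had 9 windows in 8 members. EIF2S2 led, in coding sequence (18 and 2 reads, 2.78 to 3.30), with a highest q-value of 0.127. PABPC1 had 2 windows, the stronger in coding sequence (34 and 5 reads, 2.71 to 3.97) and the weaker in the 5′ UTR (1.26 in the lower replicate). EIF3A followed with 2.49, EIF3I with 2.46, EIF4G2 with 2.44, EIF4A2 with 1.87, EIF4G1 with 1.75 and EIF1AX with 1.65. None of these reached 3 in the lower replicate, and the IP reads of the 9 windows summed to 303.

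Member windows recurred between lists. Of the 2266 distinct windows, 854 (37.7%) were in at least 2 lists, against 22.3% of all distinct windows, and 34 (1.50%) were in at least 5, against 0.313%. Of those 34, 18 were coding windows, from 9 genes. EIF1 held 6 of the 34, PABPC1 held 5 and EIF4G3 held 4. The largest overlap was between CPSF6 and RNPS1, with 643 shared windows, 81.6% of the CPSF6 and 65.5% of the RNPS1 member windows. Over all genes the shares were 56.3% and 57.3%. Of the EIF4B member windows, 81.7% were in the RNPS1 list, against 38.7% of all EIF4B windows. Member windows held more input reads than usual, with a median of 12 against 5 in the EIF4B list and 5 against 2 in the RNPS1 list. The part of that higher coverage in the overlap was not tested.

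The most shared windows were 4 that occurred in 6 lists. The EIF3L start codon window (chr22:37849450-37849482) was strongest for EIF4B (51 and 3 reads, 4.79 to 5.04) and then RNPS1 (36 and 3 reads, 3.47 to 3.98). The EIF4G1 coding window (chr3:184325269-184325320) was strongest for RNPS1 (6.53 to 8.06) and then MBNL2 (24 and 8 reads, 4.50 to 4.96). The EIF4G2 coding window (chr11:10799283-10799353) was also strongest for RNPS1 (133 and 9 reads, 4.73 to 5.02) and weakest for RBM10 (1.79 to 3.44). The EIF4A2 noncoding exon window (chr3:186786646-186786674) was strongest for EIF4B (378 and 173 reads, 3.76 to 4.24), and its input was high in every list that gave it, from 18 reads (CPSF6) to 173.

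EIF4A1, the main helicase of cap-dependent initiation, overlaps the SENP3-EIF4A1 readthrough gene, and 140 windows named it in combination with other genes. They numbered 41 in the RNPS1 list, 30 for RBM10, 21 for CPSF6, 13 for EIF4B, 11 for MBNL2, 10 for CPSF5, 9 for RBM22, 5 for LGALS3 and 0 for GRB2. The strongest was an RNPS1 coding window (chr17:7577569-7577637, 1262 and 26 reads, 5.55 to 6.10). In the EIF4B list the strongest was a coding window (105 and 15 reads, 4.02 to 4.78), 2 of the 13 were start codon windows and none was in the 5′ UTR. The strongest CPSF5 window ended at the RefSeq gene end, in the 3′ UTR (152 and 10 reads, 4.21 to 4.57). Reads of the overlapping genes cannot be told apart in these windows.

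Other genes of the pathway were counted in the same way. A set of 28 genes outside the members, here called regulators, held the eIF2B subunits, the eIF2 kinases, the eIF4E-binding proteins and others. It also held EIF4A3, EIF5A and EIF5A2, which bear initiation factor names but are not initiation regulators in a strict sense. Of the 28, 27 were in the EIF4B and RNPS1 lists, 25 in CPSF6, 23 in MBNL2, 20 in CPSF5 and 19 in RBM10. The GRB2 list held 14, the RBM22 list 7 and the LGALS3 list 1, which was EIF5A. The strongest EIF4B windows among the 28 genes were in PAIP1 and EIF4EBP1. PAIP1, a partner of the poly(A)-binding protein, had a 5′ UTR window (787 and 3 reads, 5.87 to 9.57). EIF4EBP1, a repressor of eIF4E, had a start codon window (3343 and 33 reads, 5.74 to 5.98). Of 14 elongation and termination factor genes, 12 were in the EIF4B, CPSF6 and RNPS1 lists, 11 in MBNL2 and RBM10, 10 in CPSF5, 8 in RBM22, 7 in GRB2 and 2 in LGALS3. Their strongest EIF4B windows were in the 5′ UTRs of the mitochondrial elongation factors GFM1 (74 and 0 reads, 5.72 to 6.08) and TUFM (1527 and 17 reads, 5.55 to 5.86). The RBM22 list held 70.0% of the members, 25.0% of the regulators and 57.1% of the elongation and termination factors, against 23.7% of protein-coding genes. The regulators, with EIF4A3 and EIF5A among those listed, were thus near the background there. In the GRB2 list the regulators and the elongation and termination factors, both at 50%, were near its background of 49.1%. Backgrounds of the other lists are those given above.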

How the data were processed

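The 36 eCLIP libraries of 9 proteins in HEK293T cells were analysed with build hg38, per the submitters' processing notes, with an aligner and window caller not given in the sources used here. Per the file headers, the authors deposited 1 table of reproducibly enriched windows per protein, each of at most 100 nt and called in 2 replicates. IP and input read counts per window were deposited by the authors as sums over replicates. Enrichment is a log2 odds ratio, per the file headers, and each deposited table gives its lowest, mean and highest value over replicates. The authors also deposited a p-value and q-value range (largest q-value 0.199923 in any list) and the GC fraction of each window.

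Windows were assigned by exact gene name, start positions were converted to 1-based, and the 18 deposited feature types were merged into 11 classes. Counts, medians, shares and overlaps were computed in Python 3.11.15 with pandas 2.3.3 and numpy 2.4.6, and plotted with matplotlib 3.10.9. The joining of adjoining windows was checked on simulated data, and the other counts were not checked in this way. The background was the 10122 protein-coding genes with a window in any list. RefSeq (GRCh38.p14) supplied gene ends, lengths and the printed bases, and 22 members matched its promoter table. No fit or test was possible, because no value per library is given and replicates are summarised; whether they came from separate cultures is not stated, so their spread may be technical. Library depth is unknown.

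Named transcripts were the 3 strongest by lower replicate and the 3 with most windows in each list, EIF4B throughout, members in the most and fewest lists, the most shared windows, and the 2 strongest genes of each other pathway list in the EIF4B list. Within roles, further members were named for completeness. The members and lists were chosen with earlier results of these data known. Alternatives were a stricter q-value of 0.05, a lower-replicate enrichment of 3, minimum reads (20 IP and 1 input), joined windows, weighting by IP reads, and ranking by the higher replicate.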

Additional observations from a re-analysis of the deposited data

How the results depend on the processing

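No paired analysis was possible because the tables hold no value per library, and leaving out a replicate could not be run because every listed window was called in both. Of 85 alternatives, 50 left the result nearly as it was and 35 moved it, and the cause was not tested. Counts had to stay within 1.5 times. Shares had to stay inside an exact binomial interval around the main share, which treats neighbouring windows as independent. Strongest windows had to stay the same or differ by less than a set part of the replicate gap. That interval is wide for few windows, so the LGALS3 coding share (44.4% by windows, 31.4% by IP reads) counted as unmoved. Where both replicates had to reach a q-value of 0.05, the windows in member transcripts numbered 103 (CPSF5), 476 (CPSF6), 540 (GRB2), 1 (LGALS3), 91 (RBM10) and 20 (RBM22), the members listed fell to 1 (LGALS3) and 12 (RBM22), and 568 windows were in at least 2 lists. The largest class then held 91.3% (CPSF5), 65.8% (CPSF6), 100% (LGALS3), 37.4% (RBM10) and 62.3% (RNPS1) of member windows. With an enrichment of at least 3, 11 members were listed for CPSF5, 11 for RBM22 and 0 for LGALS3, counts not made over all genes. Joining adjoining windows gave 80 (CPSF5), 444 (CPSF6), 173 (EIF4B), 208 (GRB2), 173 (MBNL2) and 484 (RNPS1). Weighting by IP reads gave the class that was largest by windows 85.0% (CPSF5), 73.3% (CPSF6), 46.0% (MBNL2) and 71.0% (RNPS1). For EIF4B that class, coding, fell to 16.6%, behind the 5′ UTR with 64.5%, and noncoding exons came first for RBM10 (39.8%) and RBM22 (32.7%). Alternatives chosen after seeing the data were counting combined EIF4A1 names, which moved no count of members listed by over 1.5 times, and leaving EIF4G3 out of the GRB2 list, where the deep intron share was 56.6%. Leaving EIF3E out of that list, also chosen then, gave a noncoding exon share of 3.94%. Another window came first in 7 of the 9 lists when ranked by the higher replicate. Counts of members listed with at least 20 IP reads and 1 input read stayed within 1.5 times in all 9 lists. LGALS3 and RBM22 rest on few windows, so their counts are the least settled.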
